A study of Saccharomyces cerevisiae with 10 samples.

Results

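MSH6, PMS1, OGG1, UNG1, APN1, RAD52 and REV3 are 7 budding yeast genes whose products keep the mutation rate low or, for REV3, supply part of it. They were taken by name from the array's annotation, which holds 1 probe row for each, out of 5711 genes named on the array. The row of APN1 was empty on all 10 arrays, so that 6 of the 7 genes could be measured, each with a value on every array. Expression was compared among 5 lines (MA-A3, on which most of the results turn, and MA-A8, MA-A4, MA-A1 and MA-A0) in a series on mutation accumulation, in which mutations build up as a strain is passed through repeated bottlenecks. Total RNA of 2 lines, 1 in Cy5 and 1 in Cy3, was hybridised on each array, and every pair of lines met once, which put each line on 4 arrays, 2 with each dye. The labels give no genotype, ploidy, ancestor, growth condition or number of generations for any line. None of the 5 lines is labelled as an unmutated control, and whether one of them served as such is not stated. Whether a line was grown anew for each of its 4 hybridisations is not stated, and p-values measure the spread between hybridisations only, and the number of arrays limits the precision.

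Mismatch repair removes bases that the replicative polymerases paired wrongly. Base excision repair cuts out single damaged bases such as oxidised guanine and uracil, after which an endonuclease opens the strand at the site left without a base. Recombination repairs broken chromosomes from an intact copy, and translesion synthesis lets replication pass a damaged template at the price of errors. In yeast, loss of the first of these pathways raises the rate of spontaneous mutation, whereas loss of Rev3 lowers it.

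Values are read as log2 ratios of the line in Cy5 to the line in Cy3, after each array was centred on its median. The authors state neither the base nor the direction. The direction is an assumption: the array titles and the channel order both put the Cy5 line first, but do not say how the ratio was formed. Under the opposite reading every "higher" below would read "lower". A line's value is the line minus the average of the remaining 4 ± the standard error of a linear model over the 10 arrays, so a shift in one line also moves the other 4 a little the opposite way. Tests are limma's moderated tests with Benjamini-Hochberg adjustment over all 5415 genes tested, passed at an adjusted p of 0.05.

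OGG1, UNG1 and RAD52 rose in MA-A3, by 0.65 ± 0.10, 0.59 ± 0.11 and 0.81 ± 0.10, and these 3 genes all lie on chromosome XIII. MSH6, PMS1 and REV3, on chromosomes IV, XIV and XVI, did not pass in any comparison. Of the 6 measured genes 3 differed among the lines by limma's F test, against 18.7% of all genes tested. Split by place, 3 of 3 passed on chromosome XIII, where 76.3% of all measured genes did, and 0 of 3 passed elsewhere, where 13.8% did. In MA-A3 the same 3 genes were higher, as were 10.8% of all genes and 82.2% of those on chromosome XIII, and none was lower, as were 6.19% of all genes. The differences are those of bulk RNA, in which a change in every cell and a larger change in some of the cells cannot be told apart. Once each gene was set against its own chromosome, 0 of the 6 differed among the lines, against 9.91% of all genes.

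**Figure D1:**
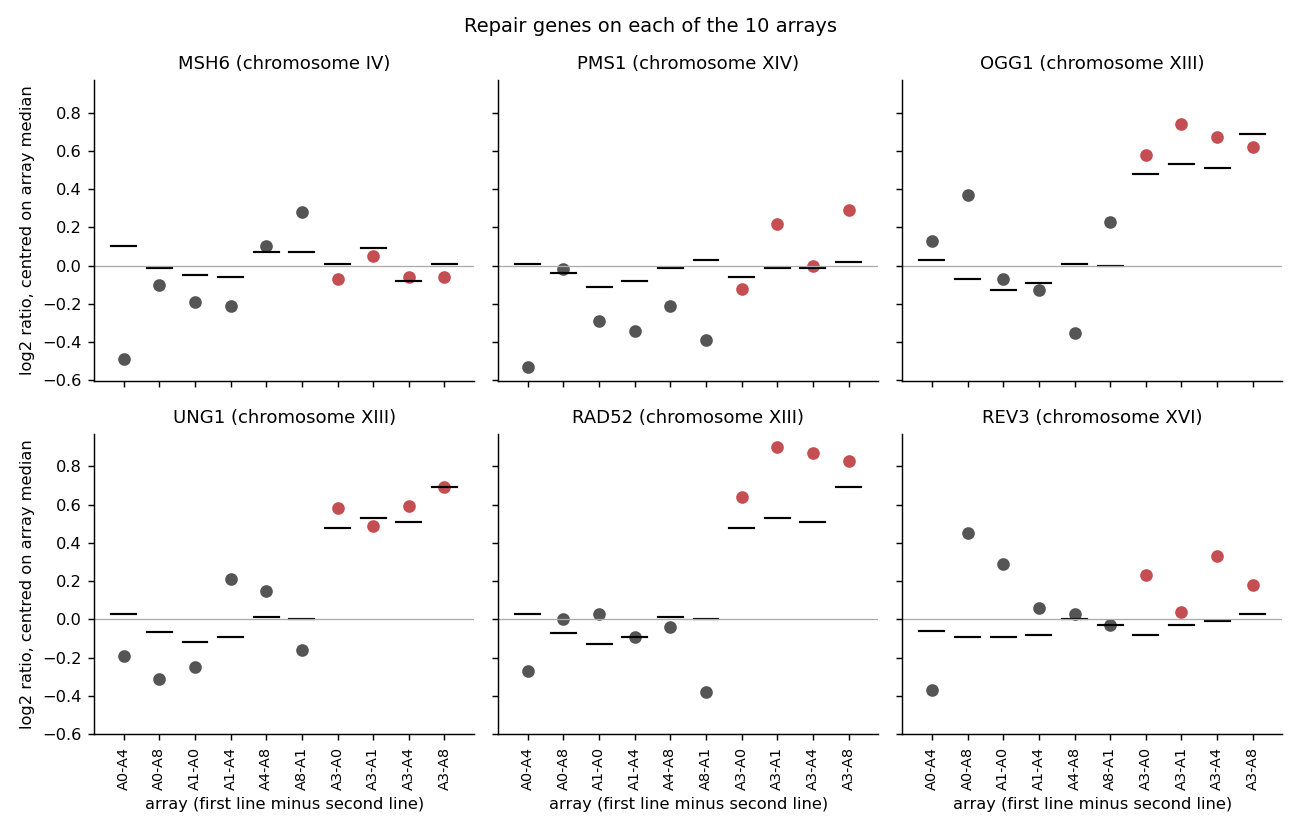
Centred log2 ratio (y axis) of each measured gene on each of the 10 arrays (x axis, first line minus second line, with the "MA-" of the line names left out). Points are single arrays, red where MA-A3 was on the array and turned so that MA-A3 comes first, and black bars are the medians of the other genes of the same chromosome. The red points of OGG1, UNG1 and RAD52 lie between 0.49 and 0.90, near or above the bars of chromosome XIII, which lie between 0.48 and 0.69.

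The mismatch repair genes came first in the list. MSH6 encodes the subunit that recognises mispaired bases and very short loops. On the 4 arrays with MA-A3 its ratio of MA-A3 to the other line was -0.07 against MA-A0, 0.05 against MA-A1, -0.06 against MA-A4 and -0.06 against MA-A8. On the other 6 arrays the ratios ran from -0.49 to 0.28 with a median of -0.145. The arrays without MA-A3 thus covered the wider range. Here and below, the signs and the median on these 6 arrays depend on which line was in Cy5. Only the sizes of their ratios can be compared with those of MA-A3. MSH6 was highest in MA-A4 (0.21 ± 0.10) and lowest in MA-A1 (-0.18 ± 0.10), with MA-A8, MA-A3 and MA-A0 between them in that order. MA-A4 and MA-A1 were 0.32 ± 0.12 apart, with a 95% interval from 0.057 to 0.58, and the gene did not pass the F test (adjusted p = 0.284). The widest gap between neighbours in the order of the lines was 0.10 ± 0.12.

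PMS1 encodes a subunit of the complex that joins the recognition step to the cutting of the strand. MA-A3 compared with the other line gave -0.12 against MA-A0, 0.22 against MA-A1, 0.00 against MA-A4 and 0.29 against MA-A8, values on either side of 0. The 6 arrays without MA-A3 gave ratios from -0.53 to -0.02, all of them below 0 whichever line was in Cy5. The dye effect fitted for PMS1 was -0.20 and did not pass (adjusted p = 0.102). Its order was MA-A4, MA-A3, MA-A0, MA-A8 and MA-A1, over a range of 0.22 ± 0.14 (95% interval -0.067 to 0.52, F test adjusted p = 0.536), and MA-A8 and MA-A1 were only 0.002 apart. Without the array that paired MA-A4 with MA-A8 the range was 0.41 and still did not pass (adjusted p = 0.310).

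Among the base excision repair genes, OGG1 encodes the glycosylase that removes oxidised guanine. MA-A3 exceeded the other line on 4 of 4 arrays, by 0.58 against MA-A0, 0.74 against MA-A1, 0.67 against MA-A4 and 0.62 against MA-A8. The other 6 arrays gave ratios from -0.35 to 0.37 with a median of 0.03, so no array without MA-A3 reached the size of any array with it. The range from MA-A3 to the lowest line, MA-A1, was 0.76 ± 0.13, which is 1.69-fold if the base is 2 (F test adjusted p = 0.0046). Below MA-A3 came MA-A0, MA-A8, MA-A4 and MA-A1. OGG1 was 0.52 ± 0.13 higher in MA-A3 than in the next line, MA-A0 (adjusted p = 0.0176). Among the 4 lines other than MA-A3 the widest gap, between MA-A0 and MA-A1, was 0.23 ± 0.13 and did not pass (adjusted p = 0.327).

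UNG1 encodes the glycosylase that removes uracil from DNA. Its ratio of MA-A3 to the other line was 0.58 against MA-A0, 0.49 against MA-A1, 0.59 against MA-A4 and 0.69 against MA-A8. On the 6 arrays without MA-A3 the ratios ran from -0.31 to 0.21, with a median of -0.175, and again did not reach the size of those with MA-A3. The range of UNG1, from MA-A3 to MA-A0, was 0.64 ± 0.13, or 1.55-fold if the base is 2 (F test adjusted p = 0.0141). The 4 lines other than MA-A3 lay within 0.09 ± 0.13 of one another. UNG1 missed the F test when the array pairing MA-A3 with MA-A8, MA-A0 or MA-A1 was left out, at adjusted p-values of 0.0677, 0.094 and 0.0792. The difference of MA-A3 from the other lines still passed when any single array was left out, with adjusted p-values up to 0.0179. APN1, which encodes the main endonuclease acting after the glycosylases, had no value.

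RAD52 encodes the protein that loads the recombinase onto single-stranded DNA and anneals complementary strands. Of the 6 genes it had the widest range among the lines, 0.88 ± 0.13 from MA-A3 to MA-A8 or 1.84-fold if the base is 2 (F test adjusted p = 0.00111). MA-A3 exceeded the other line by 0.64 against MA-A0, 0.90 against MA-A1, 0.87 against MA-A4 and 0.83 against MA-A8. The 6 arrays without MA-A3 gave ratios from -0.38 to 0.03, and the largest of them in size was well short of the smallest with MA-A3. MA-A4, MA-A1, MA-A0 and MA-A8 followed in that order, the first of them 0.76 ± 0.13 below MA-A3 (adjusted p = 0.00131) and all 4 within 0.12 ± 0.13 of one another.

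REV3 encodes the catalytic subunit of DNA polymerase zeta, the translesion polymerase behind much of the spontaneous mutation of yeast. It was above the other line in MA-A3 on 4 of 4 arrays, by 0.23 against MA-A0, 0.04 against MA-A1, 0.33 against MA-A4 and 0.18 against MA-A8. The arrays without MA-A3 gave ratios from -0.37 to 0.45, so the 2 sets of arrays overlapped. MA-A3 was at 0.20 ± 0.12 (adjusted p = 0.303), and MA-A1, MA-A4, MA-A0 and MA-A8 followed. With 1 array left out the value of MA-A3 ran from 0.0975, without the array pairing it with MA-A4, to 0.24, without that pairing it with MA-A8. The range of REV3 was 0.29 ± 0.15 with a 95% interval from -0.021 to 0.61 (F test adjusted p = 0.469). Its residual standard deviation of 0.26 was the largest of the 6 genes, against 0.21 for the median gene of the array.

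**Figure D2:**
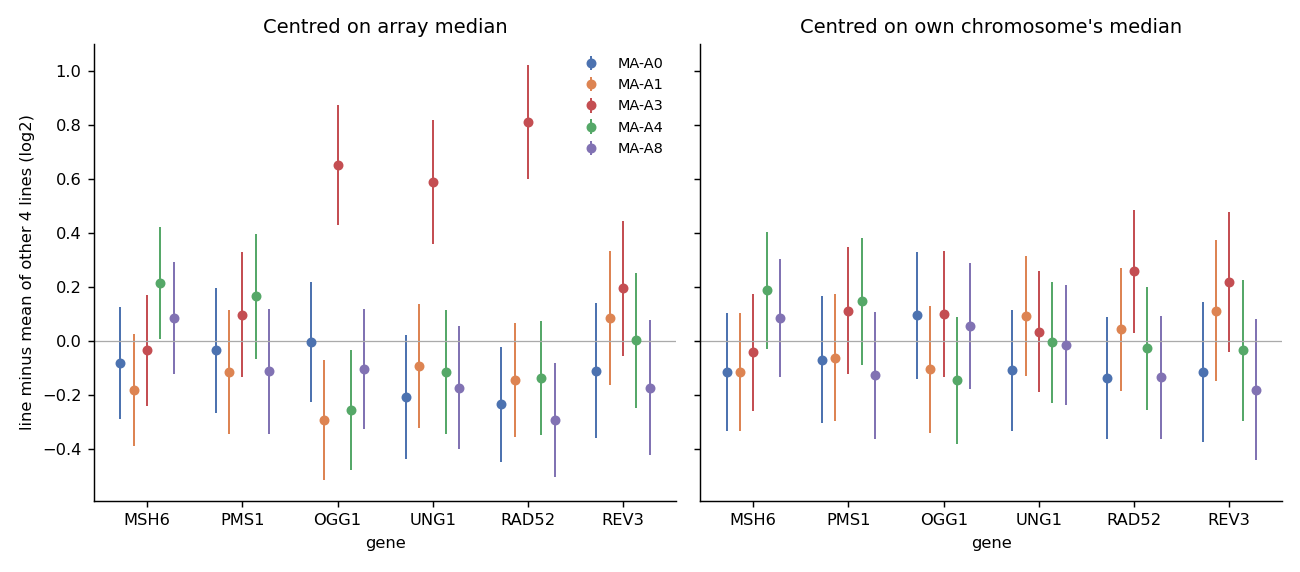
Difference of each line from the mean of the other 4 lines (y axis, log2) for the 6 measured genes (x axis), with points for the fitted values and bars for 95% intervals. Left, values centred on the array median, where MA-A3 stands at 0.65, 0.59 and 0.81 for OGG1, UNG1 and RAD52. Right, the same after subtracting the median of the other genes of the chromosome, where the 3 values are 0.10, 0.04 and 0.26.

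Each gene was also compared between every pair of lines, which gave 60 comparisons for the 6 genes. MA-A3 was higher than each of the other 4 lines for OGG1, UNG1 and RAD52, 12 of the 60. The share of all genes higher in MA-A3 was 7.65% against MA-A0, 10.1% against MA-A1, 8.01% against MA-A4 and 10.8% against MA-A8. In the 6 pairs without MA-A3 none of the 6 genes passed limma's test. The smallest unadjusted p among them was 0.0205, for MSH6 between MA-A1 and MA-A4. Few genes passed in those pairs, namely 1.83% between MA-A0 and MA-A1, 1.75% between MA-A0 and MA-A4, 0.425% between MA-A0 and MA-A8, 2.31% between MA-A1 and MA-A4, 0.222% between MA-A1 and MA-A8 and 2.18% between MA-A4 and MA-A8. Set against the mean of the others, MA-A0, MA-A1, MA-A4 and MA-A8 likewise had no passing gene among the 6, and over all genes 0.332%, 3.8%, 3.58% and 3.32% passed. The intervals give only a rough limit to what may have been missed, since each is for 1 pair alone, without adjustment over pairs. For MSH6, PMS1 and REV3 no 95% interval of a pair of lines went beyond 0.58, 0.52 and 0.61 in size, with all 10 arrays used.

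Chromosome XIII as a whole was higher in MA-A3. The median of its 427 measured genes was 0.56 there, against -0.10 in MA-A0, -0.19 in MA-A1, -0.10 in MA-A4 and -0.17 in MA-A8. In MA-A3 the medians of chromosomes IV, XIV and XVI, which carry MSH6, PMS1 and REV3, were 0.02, -0.01 and -0.02. Of the other measured genes of the chromosome, 70.4% lay below OGG1 in MA-A3, 57.5% below UNG1 and 89.4% below RAD52, so that UNG1 was close to the middle of the chromosome and 45 genes were above RAD52. REV3 lay above 87.0% of the genes of chromosome XVI in MA-A3, while MSH6 lay above 39.5% of those of chromosome IV and PMS1 above 74.0% of those of chromosome XIV.

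With the median of the other genes of the chromosome subtracted on each array, OGG1 in MA-A3 was at 0.10 ± 0.11 (95% interval -0.13 to 0.33) and UNG1 at 0.04 ± 0.10 (-0.19 to 0.26). RAD52 was at 0.26 ± 0.11 (0.031 to 0.48, unadjusted p = 0.0288) and did not pass limma's test over all genes (adjusted p = 0.156). RAD52 exceeded its chromosome on 4 of 4 arrays with MA-A3, by 0.16 against MA-A0, 0.37 against MA-A1, 0.36 against MA-A4 and 0.14 against MA-A8. Without the array pairing MA-A3 with MA-A1 the value of RAD52 was 0.135. OGG1 did so on 3 of the 4 arrays and UNG1 on 2. REV3, set against chromosome XVI, was at 0.22 ± 0.12 in MA-A3 (adjusted p = 0.311) and above it on 4 of 4 arrays, by 0.07 to 0.34. With 1 array left out the value of REV3 ran from 0.115, without the pairing of MA-A3 with MA-A4, to 0.27, without that with MA-A8. The adjusted p-values of the F test in this form ran from 0.363 for RAD52 to 0.862 for UNG1, and at an unadjusted p under 0.05 it also passed 0 of the 6 genes. None of the 6 passed limma's test in any single line either, where 9.06% of all genes passed in MA-A3, 2.74% in MA-A4, 2.66% in MA-A8, 0.813% in MA-A1 and 0.111% in MA-A0. A lack of a call does not show that the genes followed their chromosome exactly. The highest upper bound of these 95% intervals in MA-A3 for the 3 genes of chromosome XIII was 0.48, that of RAD52.

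**Figure D3:**
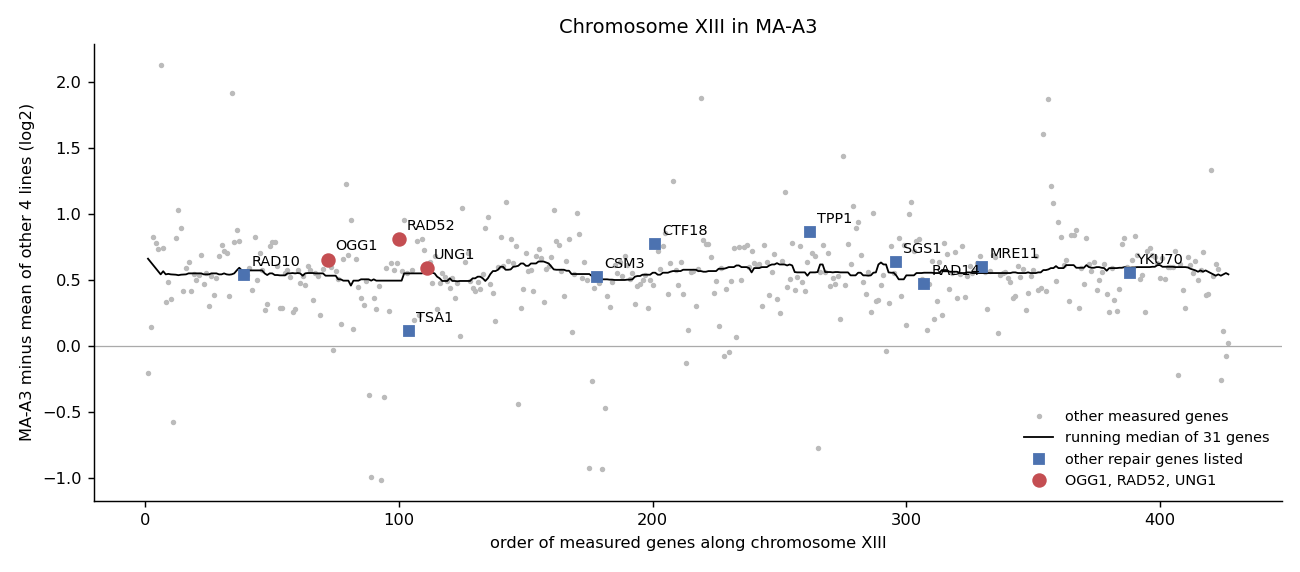
Difference of MA-A3 from the mean of the other 4 lines (y axis, log2) for the 427 measured genes of chromosome XIII in their order along it (x axis). Red circles are OGG1, RAD52 and UNG1, blue squares the other listed repair genes, grey dots the remaining genes and the black line the running median of 31 genes. The black line runs between 0.455 and 0.66, TSA1 (0.11) lies below it and RAD52 (0.81) and TPP1 (0.86) lie above it.

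Most of the genes around these 3 also rose in MA-A3. In the order of measured genes OGG1 was number 72, RAD52 number 100 and UNG1 number 111 of 427. Of the 30 genes nearest to OGG1, 21 were higher in MA-A3, with a median of 0.53, among them its immediate neighbours PIF1 (0.68, adjusted p = 0.000508), which encodes a DNA helicase, and NTE1 (0.60, adjusted p = 0.000584). HUG1, a DNA damage-induced gene that follows NTE1, was at -0.03 (adjusted p = 0.920). Around UNG1 24 of 30 were higher with a median of 0.55, and APT1 and YML020W beside it were at 0.73 and 0.64. Around RAD52 18 of 30 were higher with a median of 0.48, and SRC1 and NDC1 beside it, which encode nuclear envelope proteins, were at 0.62 and 0.56. By contrast 2 of the 30 genes nearest to MSH6, 1 of those nearest to PMS1 and 1 of those nearest to REV3 were higher in MA-A3, with medians of 0.075, -0.09 and 0.11. The sets around RAD52 and UNG1 overlap and each holds the other gene, so their counts are not separate. As background, 10.8% of all genes tested and 82.2% of those on chromosome XIII were higher in MA-A3.

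As a description over the 10 arrays, which share their lines and so are not independent, the genes most like each member were sought among 5125 genes with values on every array. MFT1 (Pearson's r = 0.99) and DPI35 (0.98) were most like OGG1, ITT1 and MTF1 (0.99 each) most like UNG1, and ABZ2 (0.99) and YML082W (0.98) most like RAD52, all of them on chromosome XIII. Of the 50 most similar genes 40, 42 and 43 lay on that chromosome for OGG1, UNG1 and RAD52. For MSH6, PMS1 and REV3 the number was 0, 0 and 2, and the closest genes were CHS1 and ELC1 (0.92 each) for MSH6, CRM1 and GLG2 (0.90 and 0.87) for PMS1, and TKL2 and ECM11 (0.94 each) for REV3. After subtraction of the chromosome's median the 50 closest genes held 7, 7 and 2 from chromosome XIII for OGG1, UNG1 and RAD52, and 6, 2 and 3 for MSH6, PMS1 and REV3. Of the 5415 genes tested 427 lie on that chromosome. The closest pairs were then ENA2 and HDA3 (0.92 each) for OGG1, ITT1 and MTF1 (0.94 and 0.90) for UNG1, and RAD28 and MPS3 (0.95 and 0.94) for RAD52. For MSH6 they were ELC1 and LPP1 (0.90 each), for PMS1 YLL032C and GLG2 (0.89 and 0.88), and for REV3 NAM7 and YGK3 (0.96 and 0.95). Among themselves UNG1 and RAD52 correlated at 0.89, OGG1 and RAD52 at 0.85 and OGG1 and UNG1 at 0.71 over the arrays, and at 0.25, 0.23 and -0.59 once the chromosome's median was subtracted.

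Beyond these genes, 102 others of DNA repair, replication, checkpoint and peroxide defence were listed, of which 95 could be tested. Of these 95 genes 10 differed among the lines (10.5%, with 18.7% of all genes as the background). On chromosome XIII 7 of 9 did, where 76.3% of all measured genes did, and elsewhere 3 of 86 did, where 13.8% did. The counts of the single lists below are to be read against the same shares. In MA-A3 11 of the 95 were higher, 8 of them on chromosome XIII, 2 were lower and 82 did not pass. The share that was higher is thus close to the 10.8% of all genes, and that of chromosome XIII to its 82.2%, while the share that was lower is under the 6.19% of all genes. The median of the 95 in MA-A3 was 0.05, that of all genes tested -0.0025.

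In base excision repair 1 of 7 other genes passed the F test, TPP1, which encodes a phosphatase that cleans broken DNA ends and was at 0.86 ± 0.10 in MA-A3 (adjusted p = 5.4e-05). None of 5 other mismatch repair genes passed, and the widest range there was that of MLH2, 0.45 from MA-A1 to MA-A0. MLH2 lies on chromosome XII, whose median in MA-A1 was 0.255 and where 25.6% of all measured genes passed the F test. With that chromosome's median subtracted the range of MLH2 was 0.259, from MA-A4 to MA-A0. In homologous recombination 2 of 20 passed, both on chromosome XIII: SGS1, which encodes a helicase that undoes recombination intermediates, at 0.63 ± 0.10 in MA-A3, and MRE11, which encodes the nuclease of the complex that first binds broken ends, at 0.60 ± 0.11. XRS2, a subunit of the same complex encoded on chromosome IV, was at -0.35 ± 0.09 in MA-A3 (adjusted p = 0.0154), and MMS4, a nuclease subunit gene on chromosome II, at 0.37 ± 0.09 (adjusted p = 0.0142). Neither passed the F test, and both are named for values already seen. None of 11 translesion and postreplication genes passed it. The widest range there, 0.52, was that of RAD5, a ubiquitin ligase gene on chromosome XII with values on 9 arrays. RAD5 was highest in MA-A1 and was at -0.32 ± 0.10 in MA-A3 (adjusted p = 0.0442). Against its chromosome RAD5 ranged over 0.32, from MA-A0 to MA-A3 (F test adjusted p = 0.349).

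Nucleotide excision repair and direct reversal had 1 of 15 genes passing, RAD10, which encodes a nuclease subunit and was at 0.54 ± 0.10 in MA-A3. RAD14, a damage recognition gene, was at 0.47 ± 0.11 in MA-A3 (adjusted p = 0.00833) but missed the F test (adjusted p = 0.057), and is likewise named after its values were seen. End joining had 2 of 5, YKU70, a subunit of the Ku complex at 0.55 ± 0.10 in MA-A3, and NEJ1, on chromosome XII, which ranged over 0.58 from MA-A1 (0.40 ± 0.12, adjusted p = 0.0656) to MA-A8 (-0.33 ± 0.12, adjusted p = 0.137) and was at 0.37 ± 0.12 in MA-A3 (adjusted p = 0.0404). Against chromosome XII NEJ1 ranged over 0.59, from MA-A3 to MA-A8 (F test adjusted p = 0.0672). The replicative polymerases and clamp had 2 of 14. CTF18, which encodes a subunit of a clamp loader, was at 0.77 ± 0.10 in MA-A3, and POL12, a primase-polymerase subunit gene on chromosome II, ranged over 0.50 from MA-A4 to MA-A0 (F test adjusted p = 0.0489), a call lost without any single one of 9 of the 10 arrays. Checkpoint genes had 1 of 13, CSM3, which helps hold stalled replication forks, at 0.52 ± 0.10 in MA-A3. Without single arrays the F test adjusted p rose to at most 0.0625 for MRE11, 0.0831 for YKU70, 0.0663 for NEJ1 and 0.0888 for CSM3.

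**Figure D4:**
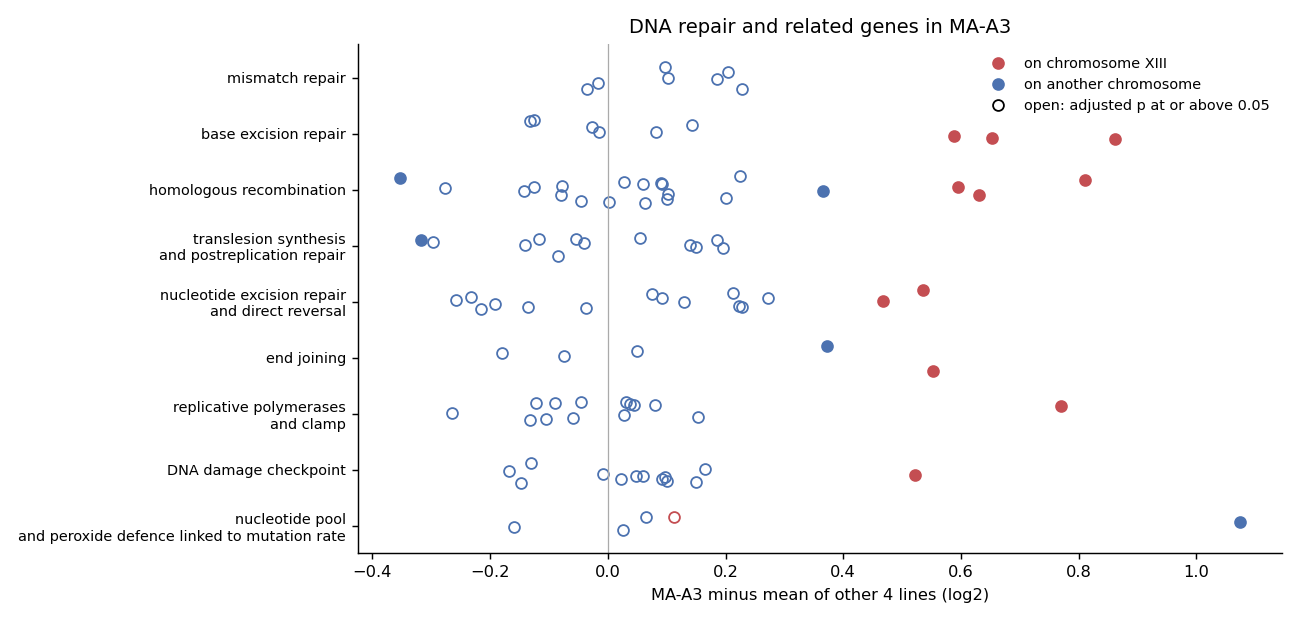
Difference of MA-A3 from the mean of the other 4 lines (x axis, log2) for all measured genes of the 9 lists (y axis), the 6 genes described first included. Each point is a gene, red on chromosome XIII and blue elsewhere, filled where limma's adjusted p in MA-A3 was under 0.05, and the vertical scatter within a list has no meaning. All red points but 1, TSA1 at 0.11, are filled and lie between 0.47 and 0.86.

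The nucleotide pool and peroxide defence list had 1 of 5 passing the F test. CTT1, which encodes the cytosolic catalase and lies on chromosome VII, was higher in MA-A3 by 1.08 ± 0.12 (adjusted p = 4.4e-05) and lower in MA-A8 at -0.69 ± 0.12 (adjusted p = 0.00778). TSA1, which encodes a peroxiredoxin whose loss raises the mutation rate, was the 1 listed gene of chromosome XIII that did not pass in MA-A3, at 0.11 ± 0.12 (adjusted p = 0.594). Against its chromosome TSA1 was lower in MA-A3 at -0.44 ± 0.11 (adjusted p = 0.0237), a value looked up after the others were known. With chromosomes subtracted 1 of the 95 genes passed the F test, CTT1, and 5 passed in MA-A3. Both shares are below those of all genes in that form, 9.91% and 9.06%. The 5 genes were CTT1 (1.09 ± 0.12), NEJ1 (0.47 ± 0.12), MMS4 (0.35 ± 0.10), XRS2 (-0.36 ± 0.09) and TSA1. The 8 other repair genes on chromosome XIII ran from -0.09 to 0.31 in that form, and none of them passed.

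Across the array 6282 to 6824 of 7744 probe rows had a value per hybridisation, and the deposited medians of the arrays lay between -0.84 and 0.41. Without centring, 0 of the 6 genes passed the F test, the adjusted p-values of OGG1, UNG1 and RAD52 being 0.398, 0.882 and 0.301, while their differences in MA-A3 stayed at 0.65, 0.58 and 0.81 (adjusted p = 0.154, 0.246 and 0.0346). With the unmoderated F test 0 passed as well, at 0.0865, 0.129 and 0.0591. The differences of OGG1, UNG1 and RAD52 in MA-A3 still passed the unmoderated test, at adjusted p-values of 0.0222, 0.0346 and 0.014.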

How the data were processed

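The authors deposited a single processed value for each probe on each array, with no word on how it was made. These deposited values were taken as log2 ratios, Cy5 over Cy3, because they run from -5.54 to 4.17 on both sides of 0. For the scanner, background correction, spot filter, normalization and genome build, the answer is not given in the sources used here. Of 6116 named rows 6111 were matched by gene ID to RefSeq's R64 table, used for symbols, chromosomes and gene order only. Rows of 1 gene were averaged, each array was centred on the median of its rows, and genes measured on 8 or more arrays, 5415 in all, entered the tests.

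A linear model with a term for each line and a dye effect was fitted per gene, with variances moderated by limma 3.58.1 in R 4.3.3 (5 residual and 9.19 prior degrees of freedom). For the second form, the median of all other measured genes of the chromosome was subtracted on each array. The 5 genes without a chromosome were left out there. Every pair of lines shares an array, which the model uses. The fit was tested on simulated data, in which it found most of the larger changes and missed most of the smaller ones, so a gene that did not pass may still differ.

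Members, lists and tests were chosen with earlier results of these data known. All members are named. Of the other listed genes, those passing the F test (up to 25) and the widest range of each list are named, and for each member the 2 most correlated genes. Some listed genes were not analysed here. Alternatives are given in the closing section.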

Additional observations from a re-analysis of the deposited data

Results flagged for a closer look

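For each of the 6 measured genes and each line, the line's level was computed on its 4 arrays, with the dye effect and the fitted level of the other line removed. Of these 30 sets of 4 values, 2 held a value set far apart from the other 3. Chance alone gives about 1 in 20, so this count is near the chance rate. The sets are not independent, because each array enters the levels of both its lines. MSH6 in MA-A0 was at -0.27 on the array of MA-A0 against MA-A4, while its other 3 arrays lay between -0.009 and 0.019. Without that array the range of MSH6 among the lines was 0.24 in place of 0.32 and still did not pass. Over all 20 alternatives the range of MSH6 ran from 0.24 to 0.45. The F test passed in none of them (lowest adjusted p = 0.0825). REV3 in MA-A8 was at -0.52 on the array of MA-A0 against MA-A8, with the other 3 arrays between -0.043 and 0.019. Without that array the range of REV3 was 0.40 in place of 0.29 (F test adjusted p = 0.0972 in limma's fit).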

How the results depend on the processing

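Among the 6 measured genes 3 differed among the lines, and this count was 0 with values as deposited and with the unmoderated test, and 2 to 3 when 1 array was left out. The 3 calls of single genes in single lines became 1 with values as deposited, RAD52 in MA-A3, and were 3 to 4 with 1 array left out. After centring on the chromosome the count of genes differing among the lines was 0 under all 21 alternatives. That of single lines was 0 except after reversing the signs on the array that paired MA-A8 with MA-A0, where it was 1 (REV3 in MA-A0, -0.39, adjusted p = 0.0315). The chromosome-centred value of RAD52 in MA-A3 lay between 0.135 and 0.368. The direction of OGG1, UNG1, RAD52 and REV3 in MA-A3 held in every alternative run. MSH6 in MA-A3 stayed near 0, between -0.0795 and -0.00375, and did not pass. With 1 array left out PMS1 in MA-A3 ran from -0.026 to 0.169, and from -0.017 to 0.178 in the chromosome-centred form, both lowest values coming without the array pairing MA-A3 with MA-A1. For all genes, 1014 differed among the lines, against 145 as deposited, 580 without a dye term, 62 unmoderated and 591 to 1906 with 1 array left out. For the 95 other repair genes 10 became 1 as deposited, 0 unmoderated, 17 with centring within blocks of 400 probe rows, and 5 to 25 with 1 array left out (25 on dropping the pairing of MA-A8 with MA-A0, 5 on dropping that of MA-A3 with MA-A0, 6 on dropping that of MA-A3 with MA-A1). The causes were not tested. Signal over background is not given, so limits for dim probes are unknown.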
